A study of Mus musculus with 152 samples.

Results

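The genes described here are 10 markers of T cells and natural killer (NK) cells, followed in the liver of C57BL/6J mice on a LIDPAD diet, which induces non-alcoholic fatty liver disease, and on a purified control diet. The 10 were taken as a set (Cd3d, Cd3e, Cd3g, Cd8a, Cd8b1, Cd4, Klrd1, Nkg7, Gzma and Gzmb), each matched its row by Ensembl identifier and symbol, and they were 10 of 54532 genes in the tables. Feeding began when the mice were 8 weeks old and lasted 1, 4, 8, 12, 16, 32 or 48 weeks, which with both diets gives 14 groups of whole-liver RNA. The deposited columns formed 38 libraries (18 control and 20 LIDPAD), 2 of each diet at weeks 1 to 12 and 3 of each at week 16; week 32 had 4 from control livers and 5 from LIDPAD livers, and week 48 had 3 and 4. No label gives the sex of the mice or says that the libraries come from separate animals, so p-values here reflect library-to-library spread alone, part or all of which may be technical.

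T cells recognise antigen through a receptor that signals by way of the CD3 gamma, delta and epsilon chains, encoded by Cd3g, Cd3d and Cd3e. The co-receptors CD8 (an alpha and a beta chain, from Cd8a and Cd8b1) and CD4 divide T cells into cytotoxic and helper lineages, although CD4 also occurs on some dendritic cells. Cytotoxic T cells and NK cells share a killing machinery of granule proteins, which includes Nkg7 and the granzymes A and B (Gzma, Gzmb), and Klrd1 encodes CD94, which pairs with NKG2 receptors on NK cells and on some CD8 T cells. The liver normally holds many resident NK and innate-like T cells, and CD8 T cells are known to gather in it during diet-induced fatty liver disease.

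In the mouse annotation (GENCODE M21, build GRCm38) the CD3 genes lie close together at chr9:44969572-44980431 (Cd3g, minus strand), chr9:44981786-44987339 (Cd3d, plus strand) and chr9:44998740-45009627 (Cd3e, minus strand). Of the exon bases of Cd3e, 135 of 4080 are shared with the annotated gene Gm48719, so reads there cannot be assigned with certainty, and no other member shares exon bases with another gene. Chromosome 6 carries Cd8b1 at chr6:71322788-71337494 (plus strand), Cd8a at chr6:71373427-71379173 (plus strand), Cd4 at chr6:124864692-124888221 (minus strand) and Klrd1 at chr6:129591782-129598775 (plus strand). Nkg7 is at chr7:43437073-43438249 (plus strand), Gzma at chr13:113093825-113100981 (minus strand) and Gzmb at chr14:56258838-56262260 (minus strand).

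RefSeq promoter windows, from 250 bases before to 50 bases after the gene start on GRCm38.p6, were matched for 7 of the 10 genes (Cd3d, Cd3e, Cd3g, Cd8a, Nkg7, Gzma and Gzmb). The windows of 4 genes are shown: Cd3g, Cd8a and Nkg7, the members that passed the test at both week 32 and week 48, and Gzma, the member for which every LIDPAD library lay below every control library at week 48. They are Cd3g at chr9:44980382-44980681 (minus strand), Cd8a at chr6:71373177-71373476 (plus strand), Nkg7 at chr7:43436888-43437187 (plus strand) and Gzma at chr13:113100932-113101231 (minus strand). Capitals mark letters that match, on either strand, a RUNX motif (TGTGGT), an ETS motif (GGAAGT), a T-box motif (GGTGTGA) or an E-box (CAGGTG).
Cd3g: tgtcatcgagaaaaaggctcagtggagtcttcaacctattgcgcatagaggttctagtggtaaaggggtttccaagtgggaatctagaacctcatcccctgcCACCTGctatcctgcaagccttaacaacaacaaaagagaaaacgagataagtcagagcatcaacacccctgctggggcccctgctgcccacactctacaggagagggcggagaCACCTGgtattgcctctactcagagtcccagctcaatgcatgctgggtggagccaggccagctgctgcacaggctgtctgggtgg
Cd8a: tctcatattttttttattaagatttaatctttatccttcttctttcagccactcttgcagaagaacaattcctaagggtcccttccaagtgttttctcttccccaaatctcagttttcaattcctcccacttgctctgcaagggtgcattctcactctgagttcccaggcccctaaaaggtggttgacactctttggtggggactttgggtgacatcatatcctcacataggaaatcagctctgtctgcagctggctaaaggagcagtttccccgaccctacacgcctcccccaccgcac
Nkg7: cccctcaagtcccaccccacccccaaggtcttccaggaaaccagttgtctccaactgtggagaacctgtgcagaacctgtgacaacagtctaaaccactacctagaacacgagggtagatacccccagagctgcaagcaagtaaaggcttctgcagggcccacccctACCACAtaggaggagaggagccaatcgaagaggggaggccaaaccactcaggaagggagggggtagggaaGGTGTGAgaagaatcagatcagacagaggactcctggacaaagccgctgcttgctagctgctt
Gzma: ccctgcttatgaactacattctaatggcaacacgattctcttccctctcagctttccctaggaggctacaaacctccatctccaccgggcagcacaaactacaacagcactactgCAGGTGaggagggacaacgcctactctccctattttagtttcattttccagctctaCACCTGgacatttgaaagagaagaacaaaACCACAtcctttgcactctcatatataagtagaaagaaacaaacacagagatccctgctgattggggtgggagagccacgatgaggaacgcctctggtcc
The Cd3g window holds 2 E-boxes, and that of Nkg7 holds 1 RUNX and 1 T-box match. In the Gzma window there are 2 E-boxes and 1 RUNX match, while none of these letters occurs in the Cd8a window. Among the windows that are not printed, Cd3d and Cd3e each hold 1 ETS match and 1 E-box, and Gzmb holds 2 RUNX matches. No matches in these windows share a base with one another. Over all 32851 promoter windows, 16.8% hold the RUNX letters, 23.8% the ETS letters, 3.98% the T-box letters and 20.2% the E-box, so such matches are common and mark no binding.

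Levels are given in FPM, reads per 1000000, which the authors computed with DESeq2 size factors within each week's table. A library's FPM values therefore need not add up to 1000000, and their totals ran from 754377 to 1286290. The libraries hold between 10870033 and 53802026 counted reads, and the members are scarce in all of them. Over the 380 member values (10 genes in 38 libraries) the median is 10 reads and the highest is 78 reads, or 3.13 FPM. Of the 380 values, 17 are 0 reads, 15 of them in control libraries. Under the level of 3 reads, 0.0565 to 0.311 FPM depending on the library, lie 54 values. Both mates of a fragment were mostly counted, so a count of 0 allows a level above these 3 reads. Read totals given here likewise exceed the number of independent fragments. The 3-read level covers counting error only. Each week was tested alone with limma on log2(FPM + 0.5), for genes with a mean of at least 0.2 FPM over that week's libraries, and a gene was called when its adjusted p (Benjamini-Hochberg over all genes tested) was under 0.05. Log2 changes are LIDPAD minus control on this log2(FPM + 0.5) scale, which understates the change of genes as low as these, so folds of group means are given as well.

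Libraries that stand apart bear on weeks 32 and 48. At week 32 the LIDPAD libraries 1 to 3 have 10870033 to 15387584 reads, against 28411472 and 30210683 in libraries 4 and 5, and they divide their reads among their 4 columns differently. By this division the 38 libraries fall into 3 sets, here called A, B and C, with LIDPAD libraries 1 to 3 in set B and libraries 4 and 5 in set C. The sets were inferred from the data, and no label names a sequencing run. LIDPAD library 1 of that week also holds 92258 FPM of Alb (albumin, the main secreted hepatocyte protein), where the lowest LIDPAD library of the week has 20290 FPM. At week 48 the control library 3 has 10.8 FPM of Themis and 55.5 FPM of Ptprc, above the other control libraries of that week (at most 1.65 and 27.0 FPM). The members' calls and the marker list counts of weeks 32 and 48 are given with and without these libraries. The labelled tissue was checked on 6 hepatocyte genes, which summed to between 25936 and 106721 FPM in every library of weeks 16 to 48. When every library was instead scaled to a total of 1000000, the share of called genes that were higher on LIDPAD went from 59.5% to 83.1% at week 16, from 71.2% to 92.5% at week 32 and from 68.6% to 93.6% at week 48, and it moved by over 10 percentage points at weeks 4, 8 and 12 as well (41.8% to 53.8%, 68.4% to 84.0% and 59.96% to 82.3%).

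Through the first 12 weeks none of the members was called. The summed level of the 10 genes at weeks 1, 4, 8 and 12 lay between 2.13 and 4.79 FPM in all 16 libraries of both diets. At week 4 the sums did not overlap between diets, at 2.46 and 2.13 FPM on LIDPAD and 3.32 and 4.79 FPM in the controls. The median log2 change of the members tested that week was -0.37, beside -0.004 over all genes tested. The sum carries no test, and each diet had 2 libraries. At week 1 only Cd4 and Klrd1 were abundant enough to be tested, at week 4 7 of the 10, at week 8 5 and at week 12 8. With limma 0 of these were called at each of the 4 weeks, against 1.56%, 0.306%, 4.61% and 12.2% of all genes tested, and edgeR and DESeq2 on the recovered reads also called 0. A single test, that of Cd4 at week 12, had an unadjusted p under 0.05.

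Cd4, the co-receptor of helper T cells, at week 12 was at 1.09 and 1.46 FPM in the control libraries and at 0.738 and 0.676 FPM in the LIDPAD libraries, so the diets did not overlap, but the change of -0.55 ± 0.23 (SE, n = 2 and 2) did not pass limma's test (adjusted p = 0.159). The LIDPAD libraries were also below the control libraries for Cd4 at week 4 (1.09 and 0.592 against 1.22 and 1.2 FPM) and at week 8 (0.940 and 0.908 against 1.24 and 1.05 FPM), without a call. With 2 libraries per diet such separation is frequent: at week 12 every LIDPAD library was below every control library for 25.5% of all genes tested. Klrd1 at week 4 turned on 1 control library, with 1.09 FPM there, 0.162 FPM in the other control library, and 0.142 and 0.119 FPM on LIDPAD. Without that week's control library 1, Klrd1 passed limma's test as lower on LIDPAD (adjusted p = 0.0486, the lone control library being assumed to vary like the others), and with both it did not (adjusted p = 0.654).

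Genes of other white blood cells were called at weeks at which the members were not. At week 8, 7 of 9 macrophage genes and 5 of 7 pan-leukocyte genes rose, where 3.16% of all genes tested were called higher, and at week 12 these counts were 7 and 6, where 7.32% were. Of the T cell receptor and signalling genes 1 of 11 rose at week 8 and 1 of 12 at week 12, and of the NK and cytotoxic genes 1 of 9 and 1 of 10. Whether the lymphocyte genes differ in timing from the macrophage genes was not tested.

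**Figure D1:**
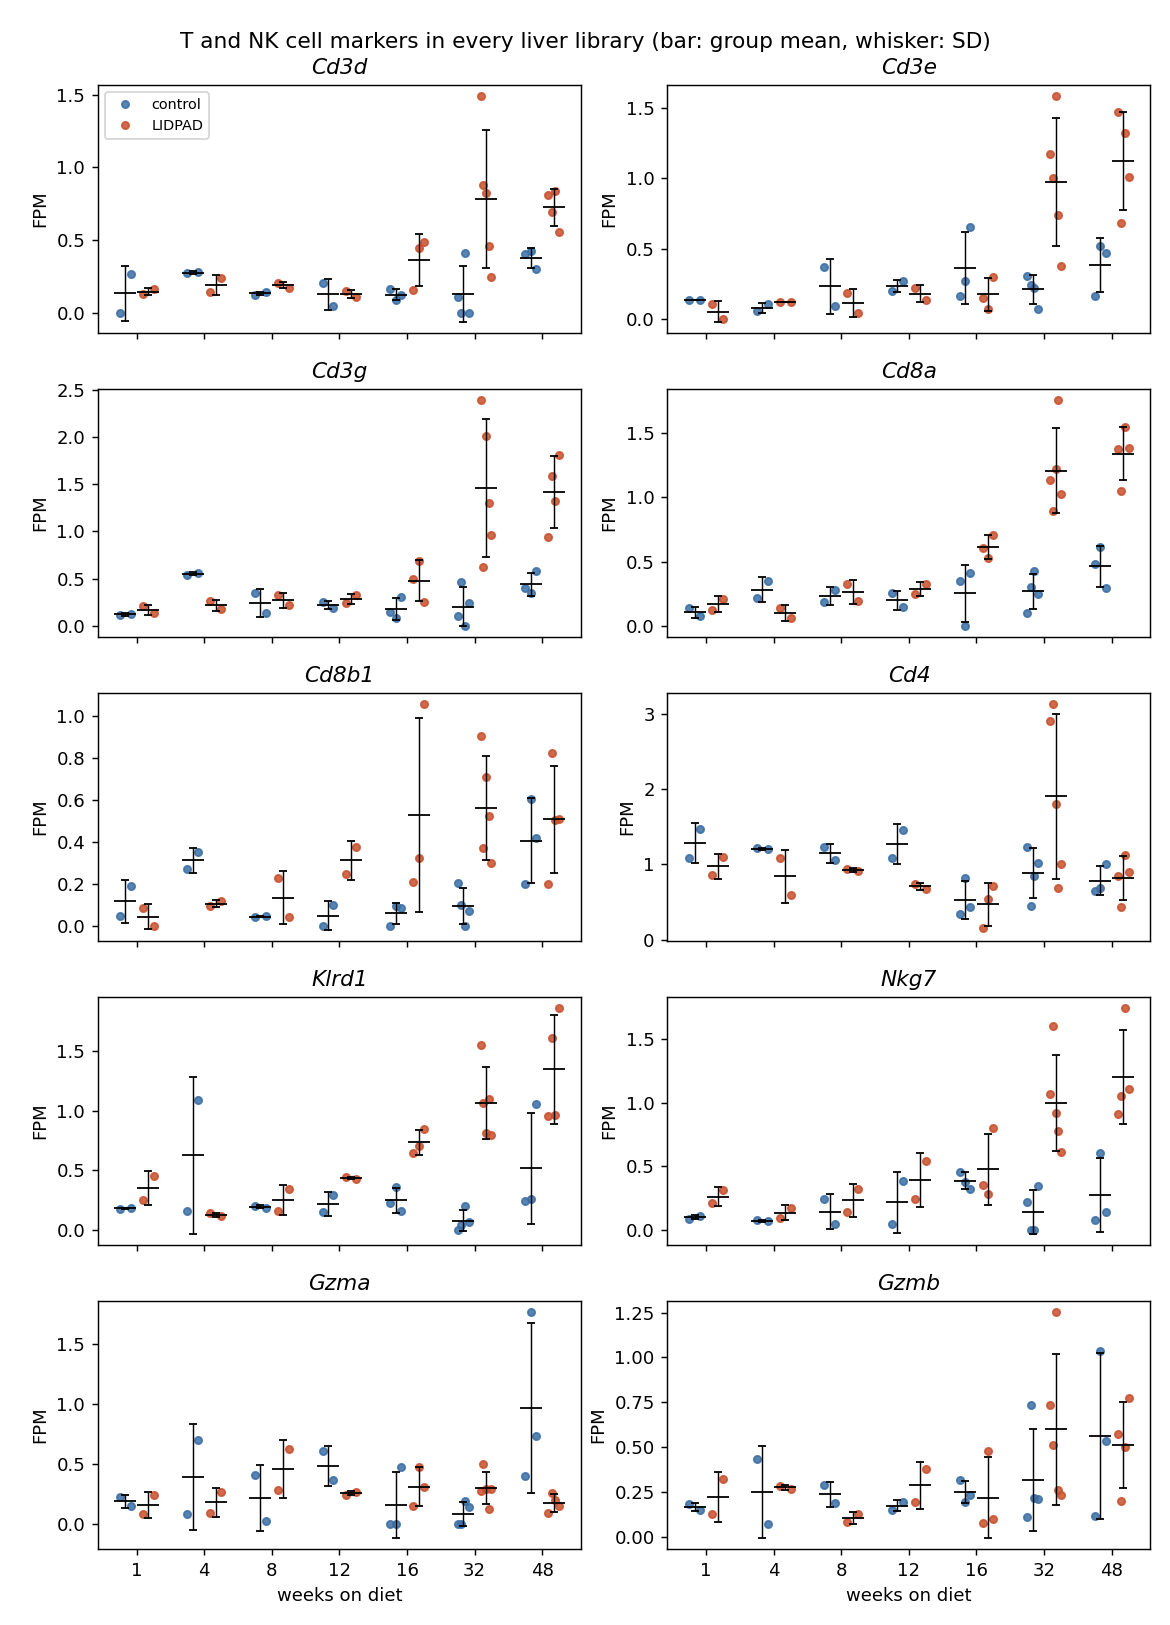
Level (FPM, linear axis) of each of the 10 genes against weeks on diet, with 1 point per library, a bar at the group mean and whiskers of 1 SD. Through week 12 no gene was called, and at week 4 the LIDPAD mean was above the control mean for 3 of the 10. At week 32 the points of 6 genes, Cd3e, Cd3g, Cd8a, Cd8b1, Klrd1 and Nkg7, do not overlap between diets.

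At week 16 all 10 genes were tested and Klrd1 alone rose, where 13.6% of all genes tested were called higher. Klrd1 was at 0.229, 0.366 and 0.163 FPM in the control libraries and at 0.648, 0.705 and 0.849 FPM on LIDPAD. Every LIDPAD library thus exceeded every control library, and the group means differed 2.91-fold (0.252 ± 0.103 against 0.734 ± 0.104 FPM, SD, n = 3 and 3; log2 change 0.72 ± 0.22, SE; limma adjusted p = 0.0306). The Klrd1 call was kept in only 1 of the 6 fits that left out a library (adjusted p 0.0342 to 0.1), and it was not made by edgeR (adjusted p = 0.0625) or DESeq2 (adjusted p = 0.0977).

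The CD8 chains were higher on LIDPAD at week 16 without passing limma's test. Cd8b1, the beta chain, was at 0, 0.0938 and 0.0829 FPM in the control libraries and at 0.207, 0.322 and 1.06 FPM on LIDPAD. These groups do not overlap, but LIDPAD library 3 lies far above the other libraries of its diet, and the change of 0.80 ± 0.29 (SE) had an adjusted p of 0.0624 by limma, 0.0334 by edgeR and 0.0207 by DESeq2. Cd8a was at 0.346, 0 and 0.412 FPM in the control libraries and at 0.602, 0.527 and 0.71 FPM on LIDPAD (log2 change 0.61 ± 0.26, SE; adjusted p = 0.112). For 3 members, Klrd1, Cd8a and Cd8b1, every LIDPAD library was above every control library, a pattern shown by 21% of all genes tested. The CD3 chains pointed in different directions, with log2 changes of 0.44 for Cd3d, 0.51 for Cd3g and -0.33 for Cd3e (adjusted p 0.154 to 0.407), and Cd4, Nkg7, Gzma and Gzmb had adjusted p from 0.422 to 0.823.

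Week 32 held the largest number of calls: 7 of the 10 members rose, where 15.6% of all genes tested were called higher, and none fell, where 6.33% were called lower. The risers were the 3 CD3 chains, both CD8 chains, Klrd1 and Nkg7, while Cd4 and both granzymes did not pass the test. The median log2 change of the 10 members was 1.00, beside 0.09 over all genes tested. On libraries scaled to 1000000 the all-gene median moved to 0.33 and the members' to 1.14, so the distance between members and all genes was 0.91 under the authors' scaling and 0.81 under the other. In 6 of the 10 every LIDPAD library exceeded every control library, which held for 15.8% of all genes tested.

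Among the CD3 chains, Cd3g (CD3 gamma) was at 0.106, 0.467, 0 and 0.248 FPM in the 4 control libraries of week 32. On LIDPAD it was at 2.39, 0.626, 2.01, 1.30 and 0.961 FPM. Every LIDPAD library was above the highest control, and the group means of 0.205 ± 0.202 and 1.46 ± 0.730 FPM (SD, n = 4 and 5) differed 7.09-fold, with a log2 change of 1.43 ± 0.31 (SE; adjusted p = 0.00673). For Cd3e (CD3 epsilon) the control libraries held 0.306, 0.242, 0.22 and 0.0683 FPM and the LIDPAD libraries 1.18, 1.00, 1.58, 0.742 and 0.374 FPM. Here too the groups are separate, LIDPAD libraries 4 and 5 being the nearest to the controls, and the log2 change was 1.01 ± 0.26 (SE; adjusted p = 0.0163). Cd3d (CD3 delta) was at 0.106, 0, 0.407 and 0 FPM in the controls. On LIDPAD it was at 1.49, 0.878, 0.826, 0.461 and 0.244 FPM. Its LIDPAD library 5 falls below control library 3. The log2 change of 0.99 ± 0.30 (SE) passed the test (adjusted p = 0.0346), but it did so in only 3 of the 9 fits that left out a library (adjusted p up to 0.0989).

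Cd8a, the alpha chain of CD8, rose at week 32 from 0.0970, 0.303, 0.427 and 0.251 FPM in the control libraries to 1.13, 0.891, 1.22, 1.75 and 1.02 FPM on LIDPAD. The lowest LIDPAD library held more than the highest control, and the group means of 0.270 ± 0.137 and 1.2 ± 0.331 FPM (SD) differed 4.47-fold (log2 change 1.14 ± 0.22, SE; adjusted p = 0.00336). Cd8b1 went from 0.206, 0.0982, 0 and 0.0683 FPM to 0.907, 0.370, 0.709, 0.522 and 0.299 FPM. It rose by 0.82 ± 0.22 on the log2 scale (SE; adjusted p = 0.0193), again without overlap, from control values of 8 reads in all 4 libraries together.

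Klrd1 and Nkg7, which NK cells and cytotoxic T cells share, rose as well. Klrd1 was at 0, 0.0454, 0.206 and 0.0727 FPM in the week 32 controls, 5 reads in all, and at 1.54, 1.06, 0.814, 1.10 and 0.795 FPM on LIDPAD, 111 reads in all. The lowest LIDPAD library (0.795 FPM) lies well above the highest control (0.206 FPM), with a 13.1-fold difference of means and the smallest adjusted p of any member (log2 change 1.42 ± 0.21, SE; adjusted p = 0.00076). Nkg7, a granule membrane protein needed for cytotoxic degranulation, was at 0.221, 0, 0 and 0.344 FPM in the controls and at 1.07, 1.60, 0.922, 0.780 and 0.615 FPM on LIDPAD (7.04-fold; log2 change 1.23 ± 0.25, SE; adjusted p = 0.00503). Cd3g, Cd8a, Klrd1 and Nkg7 kept their call in all 9 fits that left out a library of week 32, and Cd3e and Cd8b1 in 8 of the 9.

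The granzymes, the proteases that cytotoxic granules deliver, were not called at week 32. Gzma was at 0, 0, 0.193 and 0.140 FPM in the controls and at 0.273, 0.502, 0.295, 0.129 and 0.293 FPM on LIDPAD, with LIDPAD library 4 inside the control range (log2 change 0.45 ± 0.20, SE; adjusted p = 0.127). Gzmb was at 0.109, 0.735, 0.22 and 0.210 FPM in the controls and at 0.735, 0.511, 1.25, 0.261 and 0.235 FPM on LIDPAD, an overlap over most of the range (log2 change 0.40 ± 0.30, SE; adjusted p = 0.377). The controls held 6 reads of Gzma and 25 of Gzmb in all 4 libraries together.

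On LIDPAD at week 32 Cd4 was higher in libraries 1 to 3 than in libraries 4 and 5. It was at 2.90, 3.13 and 1.80 FPM in libraries 1 to 3 (set B) and at 0.684 and 1.01 FPM in libraries 4 and 5 (set C), and the controls held 1.23, 0.445 and 0.840 FPM in set B and 1.02 FPM in set C. Over both sets the log2 change of 0.70 ± 0.35 (SE) was not called (adjusted p = 0.180). Within set B alone it was 1.23 ± 0.34 (adjusted p = 0.0347), and within set C alone it was -0.18 ± 0.31 (adjusted p = 0.693, 1 control library against 2, the lone library being assumed to vary like the others). The LIDPAD libraries of set B are also those that stand apart, so set and library cannot be told apart for Cd4.

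The 7 calls themselves were made again with the set as a term in the limma fit (adjusted p 0.00101 to 0.0162). In set B alone 7 members were called higher, Cd4 being added and Cd8b1 lost (adjusted p = 0.0605), where 13.0% of all genes tested were called higher. In set C alone, with a single control library, 5 of the 9 members tested were called higher, Cd3d, Cd3e, Cd3g, Cd8a and Klrd1, where 23.0% of all genes were. Nkg7 (log2 change 0.50, adjusted p = 0.217) and Cd8b1 (adjusted p = 0.0853) were not called there. Without LIDPAD libraries 1 to 3, 4 of the 8 members tested were called, Cd3g, Cd8a, Klrd1 and Nkg7, with log2 changes of 1.24, 1.28, 1.32 and 0.94, where 11.6% of all genes tested were called higher. Cd3e (0.57, adjusted p = 0.169) and Cd3d (0.47, adjusted p = 0.320) then missed the threshold, and Cd4 and Gzmb came to -0.02 and -0.07. This fit kept the set B control libraries, while its LIDPAD libraries were all of set C. Diet and set are therefore partly mixed in it.

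**Figure D2:**
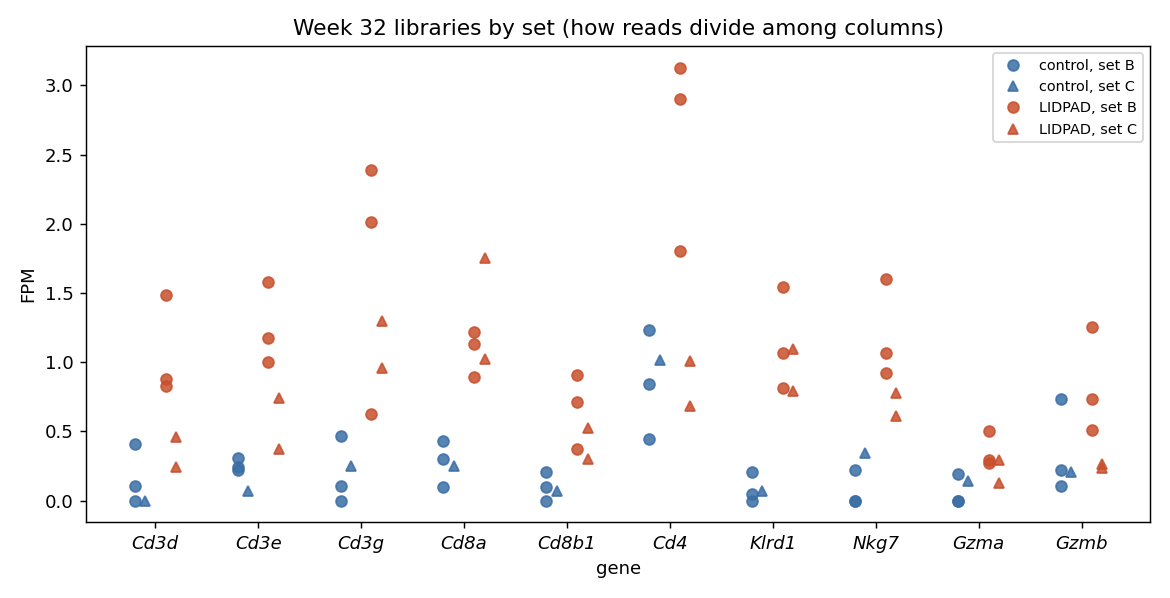
Level (FPM, linear axis) of each member in the 9 libraries of week 32, coloured by diet, with circles for set B and triangles for set C, the sets being inferred from how each library's reads divide among its columns. Cd8a and Klrd1 lie above the controls in both sets, whereas Cd4 is at 1.80 to 3.13 FPM on LIDPAD in set B and at 0.684 and 1.01 FPM in set C.

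At week 48, 3 of the 10 members rose, Cd3g, Cd8a and Nkg7, where 4.81% of all genes tested were called higher, and none was called lower (2.2% of all genes tested). The median log2 change of the members was 0.68, beside 0.02 over all genes tested. For 5 members (Cd3d, Cd3e, Cd3g, Cd8a and Nkg7) every LIDPAD library was above every control library, and for 1, Gzma, every LIDPAD library was below, where the same held for 12.8% and 8.94% of all genes tested.

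Cd3g at week 48 was at 0.401, 0.346 and 0.580 FPM in the control libraries and at 0.936, 1.59, 1.33 and 1.81 FPM on LIDPAD. The means of 0.442 ± 0.122 and 1.42 ± 0.376 FPM (SD, n = 3 and 4) differed 3.20-fold, and the change of 1.01 ± 0.21 (SE) passed the test (adjusted p = 0.0286). Cd8a was at 0.482, 0.612 and 0.295 FPM in the controls and at 1.38, 1.05, 1.54 and 1.38 FPM on LIDPAD. Its LIDPAD libraries differ little among themselves (1.34 ± 0.207 FPM, SD), and the 2.89-fold difference was called (log2 change 0.94 ± 0.19, SE; adjusted p = 0.0263). Nkg7 was at 0.0777, 0.608 and 0.140 FPM in the controls and at 0.911, 1.05, 1.74 and 1.11 FPM on LIDPAD. Control library 2 was its highest control, and the means differed 4.37-fold (log2 change 1.17 ± 0.27, SE; adjusted p = 0.0388).

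Of the members not called at week 48, Cd3e was at 0.160, 0.519 and 0.470 FPM in the controls and at 1.47, 0.683, 1.32 and 1.01 FPM on LIDPAD (log2 change 0.88 ± 0.24, SE; adjusted p = 0.0672). Cd3d was at 0.402, 0.424 and 0.299 FPM against 0.810, 0.696, 0.835 and 0.554 FPM (log2 change 0.48 ± 0.17, SE; adjusted p = 0.119). Klrd1 was at 0.245, 0.258 and 1.05 FPM in the controls and at 0.957, 1.60, 0.967 and 1.85 FPM on LIDPAD, so that control library 3, one of the libraries that stand apart, lies within the LIDPAD range (log2 change 0.91 ± 0.31, SE; adjusted p = 0.118). Cd8b1 (0.197, 0.605 and 0.418 against 0.2, 0.824, 0.503 and 0.508 FPM), Cd4 (0.653, 0.692 and 1.01 against 0.844, 0.429, 1.12 and 0.893 FPM) and Gzmb (0.117, 1.04 and 0.537 against 0.573, 0.2, 0.502 and 0.774 FPM) overlapped between diets, with log2 changes of 0.14 ± 0.25, 0.02 ± 0.23 and -0.01 ± 0.33 (SE).

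Gzma was the 1 member with every LIDPAD library of week 48 below every control library. It was at 0.405, 1.77 and 0.733 FPM in the control libraries and at 0.0905, 0.262, 0.2 and 0.152 FPM on LIDPAD. No LIDPAD library reached the lowest control, and the mean fell from 0.969 ± 0.712 to 0.176 ± 0.0725 FPM (SD), but the log2 change of -1.02 ± 0.29 (SE) missed the threshold with limma (adjusted p = 0.0752) and with edgeR (adjusted p = 0.0520) and passed it with DESeq2 (adjusted p = 0.00773). The control values carry most of the spread, library 2 holding more than the other controls together.

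The week 48 calls depended on single libraries. Without control library 3 the fit called 5 members higher, Cd3e (adjusted p = 0.0161), Cd3g (0.00301), Cd8a (0.0101), Klrd1 (0.00203) and Nkg7 (0.0134), and Gzma lower (log2 change -1.09; adjusted p = 0.0195), where 19.2% of all genes tested were called higher and 11.9% lower. Without control library 2, 1 member was called, and without any one of the other 5 libraries of the week none was. With edgeR the week 48 calls were Cd3g and Cd8a (adjusted p 0.0395 and 0.0464), and with DESeq2 Cd3e, Cd3g, Cd8a and Nkg7 higher and Gzma lower.

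**Figure D3:**
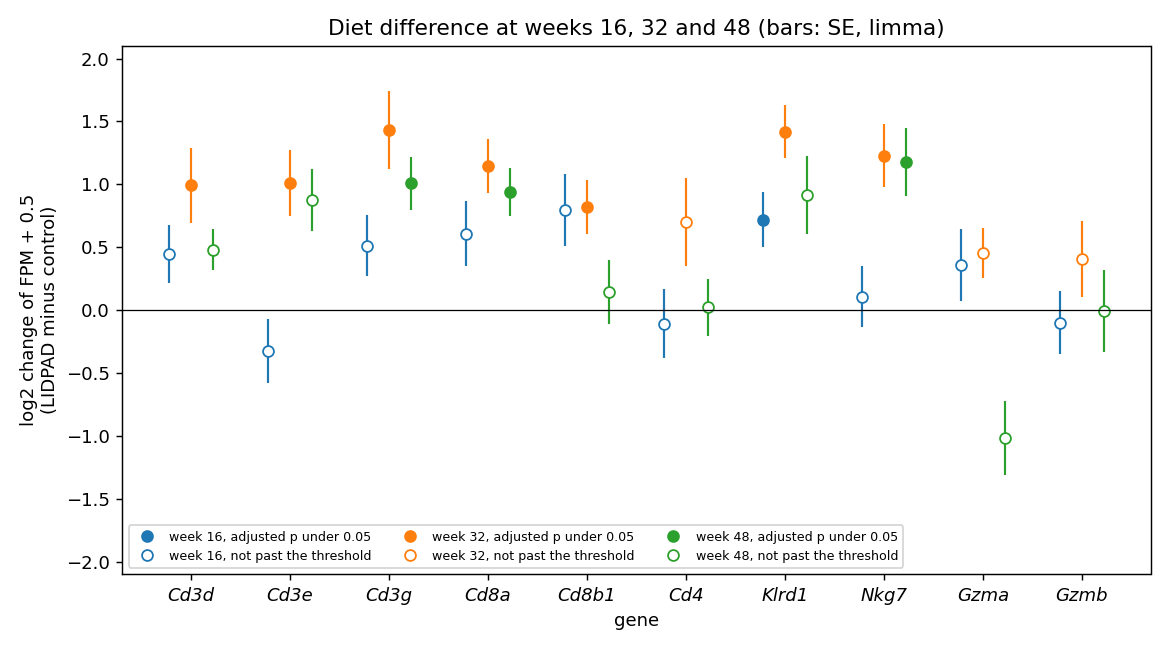
Log2 change (LIDPAD minus control, on log2(FPM + 0.5)) of each member at weeks 16, 32 and 48, with bars of 1 SE and filled points where limma's adjusted p was under 0.05. At week 32 7 points are filled and at week 48 3, and Gzma at week 48 lies at -1.02.

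Whether the diet effect differed between the 7 weeks was tested over all 38 libraries with an F test in limma on the 6 differences between weekly effects. It was called for 4 of the 10 members, Cd8a (adjusted p = 0.00827), Cd3g (0.00988), Klrd1 (0.0124) and Cd3e (0.0205), where 8.98% of all genes tested were called. Nkg7 (0.0699), Gzma (0.0784), Cd8b1 (0.104), Cd3d (0.185), Cd4 (0.351) and Gzmb (0.908) were not called. The Klrd1 call did not hold without control library 2 of week 4 (adjusted p = 0.0506). Differences between named pairs of weeks were not tested, and the inferred sets follow the weeks (A for weeks 1 to 12, B for week 16 and part of week 32, C for the rest), so week and set cannot be told apart here except within week 32.

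Summed over the 10 members, the level at week 32 was 2.34 to 2.51 FPM in the 4 control libraries and 5.84 to 13.6 FPM in the 5 LIDPAD libraries. At week 48 it was 3.14 to 6.87 FPM and 8.17 to 10.1 FPM, and at week 16 2.17 to 3.21 FPM and 3.00 to 5.57 FPM. The LIDPAD sums are thus above the control sums in every library at weeks 32 and 48 and overlap at week 16. The highest LIDPAD sums at week 32 came from the set B libraries that stand apart.

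Cd8a was set against Cd4 per kilobase of exon (3.637 kb and 4.032 kb), since levels of different genes can be compared only per length. In the 16 libraries of weeks 1 to 12 Cd8a was above Cd4 in 0, and the ratio of Cd8a to Cd4 ran from 0.0566 to 0.532. At week 48 Cd8a was above Cd4 in all 4 LIDPAD libraries (ratio 1.52 to 2.71) and in 0 of 3 controls (0.323 to 0.980). At week 32 it was above Cd4 in 2 of 5 LIDPAD libraries, both of set C (2.84 and 1.12), and below it in the set B libraries (0.433, 0.316 and 0.752), while the controls were at 0.0874 to 0.755. At week 16 the ratio exceeded 1 in all 3 LIDPAD libraries and in 2 of 3 controls, the third control holding no Cd8a read. The ratio is a description of these libraries and carries no test. The inferred sets follow the weeks, so between weeks the ratio cannot be told apart from set.

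**Figure D4:**
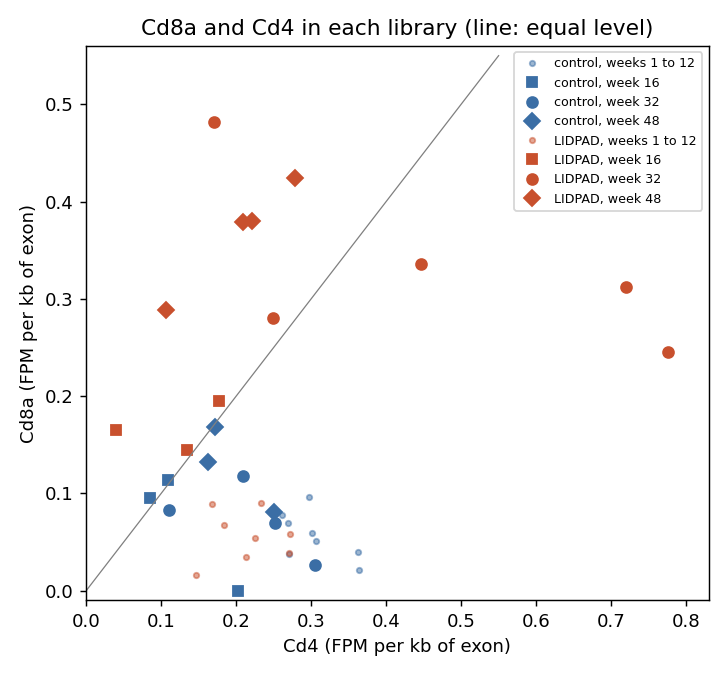
Cd8a against Cd4 in each of the 38 libraries (FPM per kilobase of exon on both axes), with blue for control, red for LIDPAD and a line where both are equal. The 4 LIDPAD libraries of week 48 lie above the line, the week 48 controls below it, and the set B LIDPAD libraries of week 32 far to the right at Cd4 levels of 0.447 to 0.776 FPM per kilobase.

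On the same per-length scale at week 48, the LIDPAD means ran, from high to low, Nkg7 1.32 ± 0.403, Klrd1 1.05 ± 0.354, Cd3g 0.433 ± 0.115, Cd3d 0.399 ± 0.0709, Cd8a 0.368 ± 0.0570, Gzmb 0.357 ± 0.166, Cd8b1 0.343 ± 0.172, Cd3e 0.275 ± 0.0858, Cd4 0.204 ± 0.0717 and Gzma 0.175 ± 0.0720 FPM per kilobase (SD, n = 4). From Cd3g to Gzma the neighbours lie within one SD of each other, as do Nkg7 and Klrd1. In the controls Gzma had the highest mean per kilobase (0.963 ± 0.708, SD, n = 3).

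The leukocyte marker Ptprc (CD45, carried by T and NK cells and by nearly all other white blood cells) was higher on LIDPAD at weeks 32 and 48. It was at 13.3 to 17.0 FPM in the week 32 controls and at 61.1 to 113 FPM on LIDPAD (log2 change 2.38 ± 0.20, SE; adjusted p = 3.82e-05). At week 48 it was at 20.8 to 55.5 and 71.4 to 85.4 FPM (log2 change 1.25 ± 0.28, SE; adjusted p = 0.0359). Without the libraries that stand apart its log2 change was 1.99 at week 32 and 1.65 at week 48 (adjusted p = 5.14e-05 and 7.73e-07). The week 32 fit kept the set B controls, so diet and set are partly mixed in it. The summed CD3 chains amounted to 1.86% to 4.70% of the Ptprc level in the week 32 controls and to 2.29% to 5.99% on LIDPAD, and to 2.43% to 4.77% and 3.77% to 4.77% at week 48, so relative to Ptprc the diets overlap at these 2 weeks. At week 12 the same share was 3.34% to 3.39% in the controls and 1.56% to 1.94% on LIDPAD. It was thus lower on LIDPAD without overlap, with 2 libraries per diet. The levels of single genes separated in this direction for 25.5% of all genes tested that week, but no such share was taken for ratios of genes. The CD3 sums themselves overlapped at week 12 (0.510 to 0.656 FPM in the controls and 0.567 to 0.616 FPM on LIDPAD), whereas Ptprc did not (15.1 to 19.7 and 31.7 to 36.2 FPM). At weeks 1, 4, 8 and 16 the share overlapped between diets. In whole-liver RNA a change in the number of cells of a type and a change in RNA per cell cannot be told apart.

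Ptprc and the T cell adaptor gene Themis were called at weeks at which no member was, although the difference in timing was not tested. Ptprc rose at week 8 (16.0 ± 1.79 to 26.4 ± 0.0440 FPM, SD, n = 2 and 2; adjusted p = 0.0201) and at week 12 (17.4 ± 3.24 to 34.0 ± 3.21 FPM; adjusted p = 0.00185). Themis, whose protein is best known for its part in thymocyte selection, went from 0.236 ± 0.0127 to 1.32 ± 0.144 FPM at week 1 (adjusted p = 0.0231). It was not called at week 4 (0.796 ± 0.664 and 3.81 ± 1.49 FPM; adjusted p = 0.215). It went from 0.624 ± 0.445 to 10.2 ± 0.135 FPM at week 8 (adjusted p = 0.00154), from 0.461 ± 0.1 to 25.4 ± 0.737 FPM at week 12 (adjusted p = 2.11e-07) and from 0.433 ± 0.128 to 38.1 ± 8.47 FPM at week 16 (adjusted p = 5.8e-09). At the 4 weeks at which these Themis calls were made no CD3 chain was called, but several were too low to be tested. No CD3 chain was tested at week 1, Cd3g alone at week 8, Cd3e and Cd3g at week 12, and all 3 at week 16. In every LIDPAD library of week 12 the 3 CD3 chains were at or under 0.324 FPM, while Themis was at 24.9 and 25.9 FPM.

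Other genes used as markers of these cells were read from marker lists, whose counts stand beside the 13.6%, 15.6% and 4.81% of all genes tested that were called higher at weeks 16, 32 and 48. Whether their reads come from T and NK cells was not tested. Of 15 tested genes of T cell receptor signalling (16 listed), 8 rose at week 32 and none fell. Trbc2, a constant segment of the receptor's beta chain, went from 0.514 ± 0.309 to 2.47 ± 1.05 FPM (SD; adjusted p = 0.00453), and Ptpn22, a phosphatase that restrains receptor signalling, from 1.16 ± 0.275 to 5.58 ± 3.61 FPM (adjusted p = 0.00319). At week 48 4 of 16 rose, Trbc2 (0.729 ± 0.253 to 2.59 ± 0.470 FPM; adjusted p = 0.0149), Ptpn22 and Themis among them. At week 16 2 of 14 rose, Themis and Ptpn22, and 1 fell, where 1734 of 18778 genes tested were called lower. Trbc2 was not called at week 16 (0.641 ± 0.441 and 1.31 ± 0.186 FPM; adjusted p = 0.0750).

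Of the NK receptors and cytotoxic effectors 8 of 14 tested rose at week 32, 3 of 16 at week 48 and 3 of 12 at week 16, and none fell at these weeks. The shares of all genes called higher were 15.6%, 4.81% and 13.6% in the same order. Ccl5, a chemokine of activated cytotoxic lymphocytes, rose at all 3 weeks: from 0.303 ± 0.132 to 0.902 ± 0.417 FPM at week 16 (adjusted p = 0.0431), from 0.253 ± 0.197 to 2.08 ± 0.667 FPM at week 32 (adjusted p = 0.000709) and from 0.661 ± 0.288 to 1.96 ± 0.215 FPM at week 48 (adjusted p = 0.0223). Klrk1, which encodes the activating receptor NKG2D, rose at week 32 (1.01 ± 0.288 to 3.04 ± 0.687 FPM; adjusted p = 0.00262) and at week 16 (adjusted p = 0.0180) and was not called at week 48 (2.08 ± 0.650 and 2.88 ± 0.579 FPM; adjusted p = 0.315). Ccl4, a chemokine also made by macrophages, rose at all 3 weeks (at week 32 from 0.0394 ± 0.0465 to 0.716 ± 0.22 FPM; adjusted p = 0.00166).

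Genes of tissue residence and exhaustion, most of which other leukocytes express too, gave 4 of 10 at week 16, 6 of 11 at week 32 and 4 of 11 at week 48, all higher, where 13.6%, 15.6% and 4.81% of all genes were. Havcr2 (TIM-3, an inhibitory receptor of T cells that macrophages and dendritic cells also carry) went from 0.544 ± 0.259 to 2.58 ± 1.40 FPM at week 32 (adjusted p = 0.00633). Rgs1, a regulator of chemokine receptor signalling in lymphocytes, went from 1.82 ± 0.185 to 6.42 ± 0.940 FPM at week 48 (adjusted p = 0.00286). Cxcr3, a homing receptor of effector T cells, was called at week 32 (0.202 ± 0.203 to 1.37 ± 1.01 FPM; adjusted p = 0.0180) and not at weeks 16 and 48 (adjusted p = 0.08 and 0.276).

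Among regulatory and helper T cell genes, 0 of 6 tested were called at week 16 with limma, 1 of 8 at week 32 and 1 of 7 at week 48, the one being Ikzf2 at both. A count of 1 of 8 lies near the 15.6% of all genes called higher at week 32 and is no result about this list. Ikzf2 (Helios, a transcription factor of regulatory T cells) went from 0.465 ± 0.314 to 3.84 ± 1.78 FPM at week 32 (adjusted p = 0.000761) and from 1.2 ± 0.109 to 5.64 ± 0.734 FPM at week 48 (adjusted p = 0.00147). Icos and Tnfrsf18, which activated and regulatory T cells carry, were not called at week 32 (0.610 ± 0.305 and 1.16 ± 0.255 FPM, adjusted p = 0.0898, and 0.460 ± 0.161 and 0.935 ± 0.392 FPM, adjusted p = 0.108). Of the naive and recirculating T cell genes, 3 of 6 rose and 1 fell at week 32, the risers including Il7r, the receptor for the survival cytokine IL-7 (0.539 ± 0.232 to 5.57 ± 4.34 FPM; adjusted p = 0.0030), and Ccr7, a homing receptor for lymph nodes (0.152 ± 0.129 to 1.03 ± 0.349 FPM; adjusted p = 0.00362). At week 48, where 4.81% of all genes were called higher, Il7r was the 1 of 7 that rose (1.01 ± 0.425 to 4.00 ± 0.760 FPM; adjusted p = 0.0132), and at week 16 1 of 7 rose, Il7r, and 2 fell. Of all genes tested, 1734 of 18778 were called lower at week 16 and 6.33% at week 32.

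The gamma-delta and innate-like T cell genes gave no riser at weeks 16, 32 and 48 (0 of 3, 0 of 5 and 0 of 4 tested, with limma), where 13.6%, 15.6% and 4.81% of all genes were called higher. With so few genes tested, counts of 0 lie near these shares and are no result about this list. The gamma constant segments Tcrg-C1 and Tcrg-C2 were at 0.0878 ± 0.104 and 0.144 ± 0.131 FPM in the week 32 controls and at 0.340 ± 0.272 and 0.461 ± 0.296 FPM on LIDPAD (adjusted p = 0.195 and 0.157). At week 16 both segments were too low to be tested. Zbtb16 (PLZF, the transcription factor of innate-like T cells, which other liver cells express as well) fell at week 32 from 46.5 ± 26.5 to 14.5 ± 11.0 FPM (adjusted p = 0.0210) and at week 16 from 14.0 ± 3.19 to 8.08 ± 2.70 FPM (adjusted p = 0.0194).

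Markers of other white blood cells were called at the same weeks, beside 13.6%, 15.6% and 4.81% of all genes called higher. Of 9 macrophage genes 8 rose at week 16, 7 at week 32 and 7 at week 48, their summed level going from 128 to 240 FPM in the week 32 controls to 604 to 2489 FPM on LIDPAD. Of 7 pan-leukocyte genes 7, 7 and 6 rose at these weeks, and of 7 conventional dendritic cell genes 3, 4 and 1. Of the B and plasma cell genes 2 of 6, 2 of 7 and 4 of 7 rose, and their sum was 10.6 to 14.3 FPM in the week 32 controls and 31.7 to 1626 FPM on LIDPAD, the highest being library 1. Hepatocyte genes went the other way, with 4, 3 and 1 of 6 lower at weeks 16, 32 and 48. Of all genes tested, 1734 of 18778 were called lower at week 16, 6.33% at week 32 and 2.2% at week 48. Genes of dividing cells rose in 6, 5 and 0 of 6 cases at the 3 weeks, and plasmacytoid dendritic cell genes in 1 of 4, 1 of 3 and 0 of 3. Of the granulocyte and mast cell genes 1 of 3, 0 of 3 and 0 of 3 rose, and of the platelet and erythroid genes 1 of 6, 1 of 6 and 0 of 6. The part of these cells, and of the lower hepatocyte levels, in the members' values was not tested.

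Without the libraries that stand apart the list counts changed in both directions. The week 32 fit set LIDPAD libraries of set C against controls mostly of set B, so diet and set are partly mixed there. At week 32 without LIDPAD libraries 1 to 3, where 11.6% of all genes were called higher, 4 of 15 T cell receptor genes, 3 of 11 NK and cytotoxic genes, 3 of 10 residence and exhaustion genes, 1 of 7 regulatory and helper genes and 2 of 6 naive and recirculating genes rose. Themis (log2 change 4.70), Ptpn22 (1.24), Trbc2 (1.37), Ccl5 (1.61), Ccl4 (1.21), Klrk1 (0.98), Havcr2 (0.97), Ikzf2 (1.73), Il7r (1.54) and Ccr7 (0.87) stayed called, and Cxcr3 was not (0.76, adjusted p = 0.115). The macrophage and pan-leukocyte genes then rose in 9 of 9 and 7 of 7 cases, and Zbtb16 fell by 2.57. At week 48 without control library 3, where 19.2% of all genes were called higher and 11.9% lower, 9 of 16 T cell receptor genes rose and 1 fell. In the same fit 5 of 16 NK and cytotoxic genes, 7 of 11 residence and exhaustion genes and 2 of 8 regulatory and helper genes rose. The naive and recirculating list then had 3 of 7 higher and 1 lower. The gamma-delta and innate-like list had 1 of 4 higher, Tcrg-C2 (0.87, adjusted p = 0.0280), and 2 lower. Cell division genes, 0 of 6 at week 48 over all libraries, rose in 6 of 6 cases without control library 3. B and plasma cell genes rose in 7 of 7 cases, and hepatocyte genes fell in 6 of 6.

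**Figure D5:**
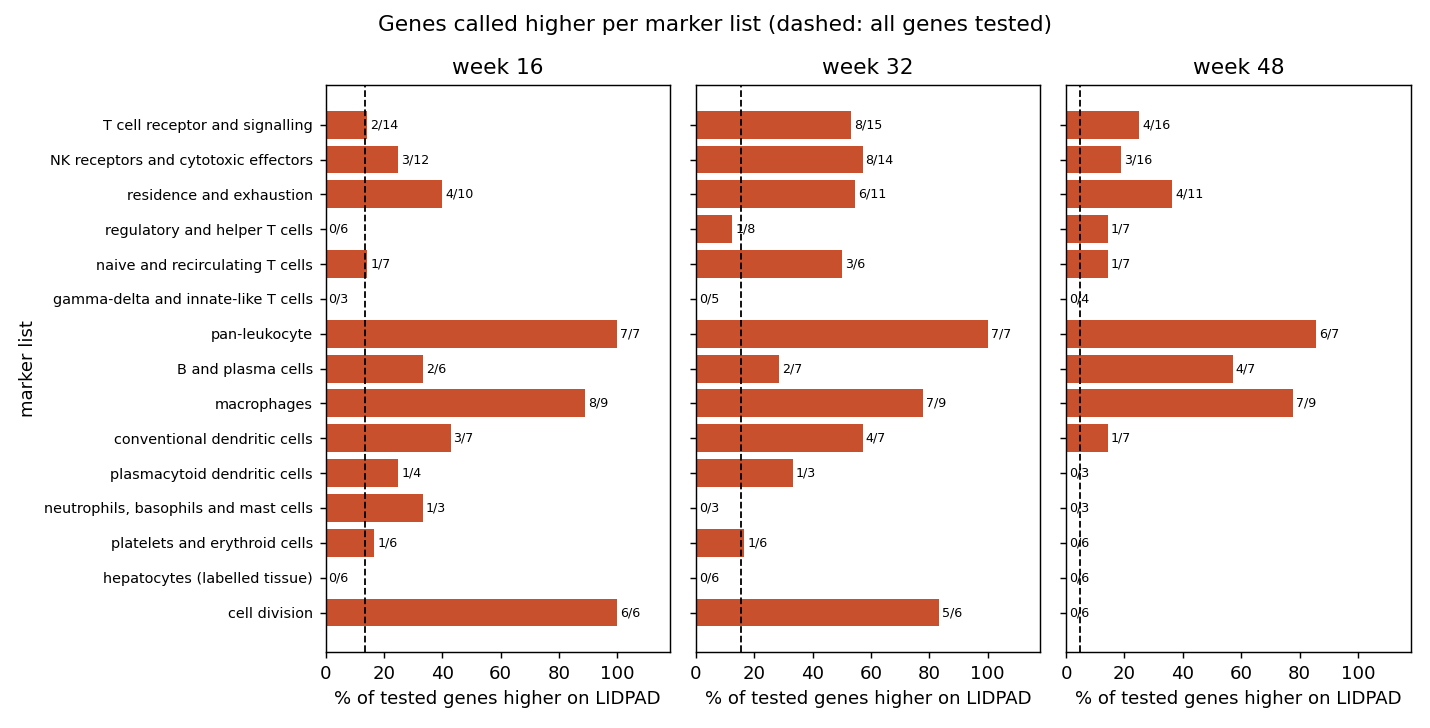
Percent of the tested genes of each marker list that were called higher on LIDPAD at weeks 16, 32 and 48, with the count beside each bar and a dashed line at the percent among all genes tested (13.6, 15.6 and 4.81). At week 32 the T cell receptor list is at 8 of 15 and the NK and cytotoxic list at 8 of 14, and the pan-leukocyte list is at 7 of 7.

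Within groups the correlations between members were low to moderate. Counting noise lowers such correlations at a median of 10 reads, and small groups leave few independent deviations. Low values therefore do not show that the members vary apart from one another. After each library's week and diet mean was taken off, the Pearson r between pairs of members over the 38 libraries ran from -0.39 (Cd4 and Cd8a) to 0.54 (Cd4 and Cd3d). The members and predicted genes aside, the genes whose variation was most like the mean of the 3 CD3 chains were Scarna2 (r = 0.82), Cdk19, Rbms2, Kmt2e, Emcn, Stxbp6, Ank3 and Dsg2 (r = 0.77), all over 38 libraries. Without the 5 LIDPAD libraries of week 32 these r fell to between 0.20 and 0.51 (33 libraries). Scarna2, a small RNA of Cajal bodies, was at 25.1 to 52.1 FPM in the LIDPAD libraries 1 to 3 of week 32 and at 8.48 to 25.5 FPM in the other 35 libraries. The likeness thus rests in large part on libraries that stand apart, and libraries of a week share their size-factor scaling.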

How the data were processed

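Per the submitters' processing notes, reads were aligned with HISAT2 to GRCm38, counted with featureCounts and scaled with DESeq2. The authors deposited 1 table per week in FPM (signal: reads per 1000000, after size factors), each normalized on its own, with 152 sample columns. Whole reads were recovered from the steps of the FPM values (100% of values whole within 0.02 reads). Most low values were even: 2 reads occurred 5.35 times for every value of 1 read, so both mates of a fragment were mostly counted. Columns in blocks of 4 differed by no more than the sampling noise of such read pairs (chi-square per degree of freedom 1.97 to 2.27 within blocks, at least 2.54 between), and each block was averaged and counted as 1 library, giving 38. Total depth was 10870033 to 53802026 reads per library.

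LIDPAD was compared with control within each week with limma 3.58.1 (R 4.3.3) on log2(FPM + 0.5), with a mean-variance trend, for genes with a mean of at least 0.2 FPM over the week's libraries, two-sided, with Benjamini-Hochberg adjustment over all genes tested and a threshold of 0.05. An F test over 14 group means compared the diet effects between weeks. Alternatives were other pseudocounts and filters, scaling to 1000000, edgeR 4.0.16 and DESeq2 1.42.0 on the recovered reads, the replicate block, the set of libraries (inferred from how reads divide among a library's columns), and leaving out libraries. The fit was tested on simulated data. Same-numbered libraries of the 2 diets did not deviate together. The members, the marker lists and the rule for naming list genes (the 3 with the smallest p at week 32, 1 of which is not reported here) were chosen with earlier results of these data known, and the 0.2 FPM filter was set because the members are low. Genes most like the CD3 chains were taken among those with a mean of at least 1 FPM. Promoters are from RefSeq (GRCm38.p6) and gene positions from GENCODE M21.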

Additional observations from a re-analysis of the deposited data

Results flagged for a closer look

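The diet effect differed between weeks for 4 members in the limma F test over all 7 weeks. The adjusted p was 0.00827 for Cd8a, 0.00988 for Cd3g, 0.0124 for Klrd1 and 0.0205 for Cd3e. The weekly log2 changes of Cd8a were 0.61 at week 16, 1.14 at week 32 and 0.94 at week 48, and those of Cd3e were -0.33, 1.01 and 0.88. No library stood out within a group of 4 or 5 libraries for any member in the 30 groups examined, where chance would give 1.5.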

How the results depend on the processing

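Of the members' log2 changes refitted without 1 library, 237 kept direction and side of the threshold, 30 lost a call, 5 gained one and 19 changed sign; under the other settings the numbers were 475, 16, 17 and 8. The causes were not tested. Without 1 library, called genes ranged from 37 to 1023 at week 1, 9 to 645 at week 4, 179 to 1807 at week 8, 1252 to 2753 at week 12, 2962 to 4248 at week 16, 3143 to 4230 at week 32 and 82 to 6172 at week 48, and called members from 0 to 1 at weeks 4 and 16, 5 to 7 at week 32 and 0 to 6 at week 48; members with an effect that differs between weeks numbered 3 to 6. Over all genes 264 were called at week 1, 55 at week 4, 824 at week 8, 2233 at week 12, 4286 at week 16, 4288 at week 32 and 1398 at week 48. With DESeq2 there were 446 at week 1, 284 at week 4 and 2414 at week 48 (5 members). With no filter there were 106 at week 4, 478 at week 8 and 1344 at week 12, and 0 members at week 48. Scaled to 1000000, week 48 gave 2919 genes and 5 members, and week 16 gave 2 members. A pseudocount of 0.1 gave 2 members at week 16. A filter of 1 FPM, which leaves few members to test, gave 0 members at week 16 and 1 at week 32. Each deposited column taken as a sample, which counts 1 library as 4, gave 2940, 2965, 5256, 5778, 7380, 8997 and 6302 genes at the 7 weeks in order, and 1 member at week 12, 2 at week 16 and 6 at week 48. At week 32 set C alone gave 7310 genes, and leaving out LIDPAD libraries 1 to 3 gave 4 members; these 2 settings, set B alone and the list counts without libraries that stand apart were chosen after seeing the data.

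Same-numbered libraries of the 2 diets correlated between -0.11 and 0.11, so the numbers do not pair them; with the replicate block there were 340 genes at week 4, 19 genes and 0 members at week 48, and 2 members at week 16. Signs turned only for uncalled members. At week 32 Cd4 was -0.18 in set C alone and -0.015 without LIDPAD libraries 1 to 3, where Gzmb was -0.075. At week 48 Gzmb was 0.082 with a pseudocount of 0.1, 0.12 scaled to 1000000 and 0.021 with each column a sample, and Cd4 was -0.012 with the replicate block and -0.023 with each column a sample. Without 1 library the log2 changes that turned sign ranged as follows: Gzmb at week 4 from -0.27 to 0.44, Cd3g at week 8 from -0.14 to 0.27, Cd8a at week 8 from -0.075 to 0.18, Nkg7 at week 12 from -0.012 to 0.68, Cd4 at week 16 from -0.29 to 0.15, Nkg7 at week 16 from -0.11 to 0.25, Gzmb at week 16 from -0.15 to 0.034, Cd8b1 at week 48 from -0.034 to 0.31, Cd4 at week 48 from -0.085 to 0.18 and Gzmb at week 48 from -0.35 to 0.31. Depth limits the members throughout: the median member value rests on 10 reads, and the inferred sets follow the weeks.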
